A study of Homo sapiens with 6 samples.

Results

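The genes described here act in the G2 phase and in mitosis, and BOD1, a chromosome biorientation gene, is counted with them. They were given as 41 gene symbols, and each was read from the brightest probe set that the array annotation assigns to that symbol alone. This found 40 of the 41 genes, and all 40 lay among the 13812 genes bright enough to be tested. CENPA, the histone of centromeres, was not analysed with them because its probe set also carries the symbol of another gene.

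RNA was measured in the glioblastoma cell lines A172, T98G and U87MG on 6 Affymetrix Human Gene 1.0 ST arrays, which read each transcript with many short probes along its exons. One array per line came from cells transfected with a miR-338-5p precursor, called the mimic here, and 1 from cells of the same line transfected with a negative control. Cells were harvested 24 hours after transfection, and the stated aim was to find targets of the microRNA. The labels do not say whether an array stands for 1 culture or a pool, so p-values measure the spread between these arrays of these lines.

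Mitosis is driven by cyclin-dependent kinase 1 with cyclins A and B. These kinases and their helpers condense the chromosomes and build the spindle, and the spindle checkpoint holds back the anaphase-promoting complex until every kinetochore is attached to microtubules. Most of these genes are transcribed in late S phase and G2, when MuvB complexes and FOXM1 act on promoters with a CHR element, often together with NF-Y at CCAAT boxes. BOD1 holds back the B56 form of protein phosphatase 2A at kinetochores, as shown in human cells, and takes part in turning the chromosomes toward both poles.

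The mature microRNA is shown because the bases that select its targets are few. RefSeq gives it with the coordinates chr17:81125923-81125944 on the minus strand of GRCh38.p14, and the capitals mark the seed, bases 2 to 8. A messenger RNA site opposite this seed reads AUAUUGU. The sequence of the transfected oligonucleotide is not given in the sources used here.
hsa-miR-338-5p: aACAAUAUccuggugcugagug

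Promoters are shown for 5 members whose CHR element and CCAAT box stand close to the start, and for BOD1 as the one gene that passed the test below. Each is the 100 bases before the start of transcription in RefSeq's annotation of GRCh38.p14, read toward the start. Capitals mark CHR letters (TTTGAA, or TTCAAA where the element lies on the other strand) and CCAAT letters (CCAAT, or ATTGG on the other strand). The windows are chr15:59105046-59105145 on the plus strand for CCNB2, chr10:92593030-92593129 on the plus strand for KIF11 and chr15:69414249-69414348 on the plus strand for KIF23. They are chr16:23678789-23678888 on the plus strand for PLK1, chr15:90994536-90994635 on the minus strand for PRC1 and chr5:173616651-173616750 on the minus strand for BOD1.
CCNB2: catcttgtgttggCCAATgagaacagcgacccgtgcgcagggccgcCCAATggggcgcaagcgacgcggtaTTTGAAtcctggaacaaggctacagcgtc
KIF11: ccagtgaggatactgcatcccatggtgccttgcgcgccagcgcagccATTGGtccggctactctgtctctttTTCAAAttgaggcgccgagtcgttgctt
KIF23: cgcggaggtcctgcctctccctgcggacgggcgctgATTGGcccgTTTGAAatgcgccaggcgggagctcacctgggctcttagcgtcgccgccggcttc
PLK1: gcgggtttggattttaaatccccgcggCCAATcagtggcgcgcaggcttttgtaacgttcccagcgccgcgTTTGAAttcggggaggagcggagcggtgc
PRC1: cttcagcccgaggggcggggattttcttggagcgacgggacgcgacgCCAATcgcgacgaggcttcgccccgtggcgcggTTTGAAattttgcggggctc
BOD1: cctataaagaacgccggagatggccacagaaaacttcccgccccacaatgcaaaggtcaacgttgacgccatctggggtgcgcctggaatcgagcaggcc

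The CHR letters begin 29 bases before the start in CCNB2, 28 in KIF11, 55 in KIF23, 29 in PLK1 and 20 in PRC1. BOD1 has neither motif in the stretch shown or in its full window of 250 bases before to 50 after the start. RefSeq promoter windows of that size were at hand for 34 of the 41 genes, with 44 windows in all since some genes have several starts. The members without one are AURKA, BUB3, TTK, UBE2C, TPX2, BIRC5 and FOXM1. A CHR match (TTTGAA or TTCGAA on either strand) stood in 28 of the 44 windows, or 63.6%, against 16.4% of all 35116 windows. CCAAT on either strand stood in 32 windows, or 72.7%, against 34.6% of all windows, and both motifs stood in 23 windows, or 52.3%, against 6.38%. These are matches of letters and not measured binding. The measured members with a CHR match and those without it had median changes of 0.10 (24 genes) and 0.09 (9 genes) on the log2 scale after the mimic.

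All values below are RMA log2 expression, and a change is mimic minus control on that scale, averaged over the 3 lines and printed with the SD of the 3 line values (n = 3). On this scale 1 unit is a doubling. Levels are compared within a gene and not between genes, because probe sets differ in brightness. Tests are limma's, with the line as a block, Benjamini-Hochberg adjusted over all genes tested, and a gene is called at an adjusted p under 0.05.

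BOD1 was the only member called for the mimic. With the mimic it stood at 8.07 in A172, 8.59 in T98G and 7.97 in U87MG, against 7.23, 7.78 and 7.24 with the control in the same lines. The 3 mimic values lay above all 3 control values. BOD1 thus rose by 0.79 ± 0.07, or 1.73-fold, in limma's test (adjusted p = 0.0118). The change was 0.85 for A172, 0.81 for T98G and 0.72 for U87MG, and its change was the 8th largest among the 44 genes called higher. That call was lost without the U87MG arrays, a fit in which 0 of all genes tested were called. The change of BOD1 was then 0.83 and limma's adjusted p 0.109.

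Over all genes tested 0.319% were called higher and 0.789% lower, 1.11% in all, while 1 of the 40 measured members was called higher and 0 lower. At an unadjusted p under 0.05 in the same limma fit, 6 members were higher and 0 lower, where 6.01% of all genes were higher and 5.83% lower. The 1 called member is BOD1, which was counted with the mitotic genes by name. Members were chosen with earlier results of these data known, so 1 of 40 is no result about mitotic genes. Without BOD1, 0 of 39 were called and 5 were higher at the unadjusted p. The other 39 members had changes from -0.10 to 0.34 and adjusted p from 0.152 to 1.00. The arrays measure bulk RNA, in which fewer cells in a phase of the cycle and less RNA per cell cannot be told apart.

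Small changes above 0 were nevertheless frequent among the members. A positive mean change was seen in 31 of the 40, or 77.5%, against 52.4% of all genes, and 21 members were higher in every line, or 52.5%, against 18.5% of all genes. CDC25C, a phosphatase that activates cyclin-dependent kinase 1, and UBE2C, the ubiquitin-conjugating enzyme of the anaphase-promoting complex, were lower in every line, which 15.8% of all genes were. The median change was 0.093 over the members (0.0916 without BOD1), against 0.0068 over all genes. Members are co-regulated genes of the same 6 arrays, so these shares describe the group and carry no test. The 6 lists of other mitotic genes, given below, also had more genes higher in every line than the share over all genes.

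**Figure D1:**
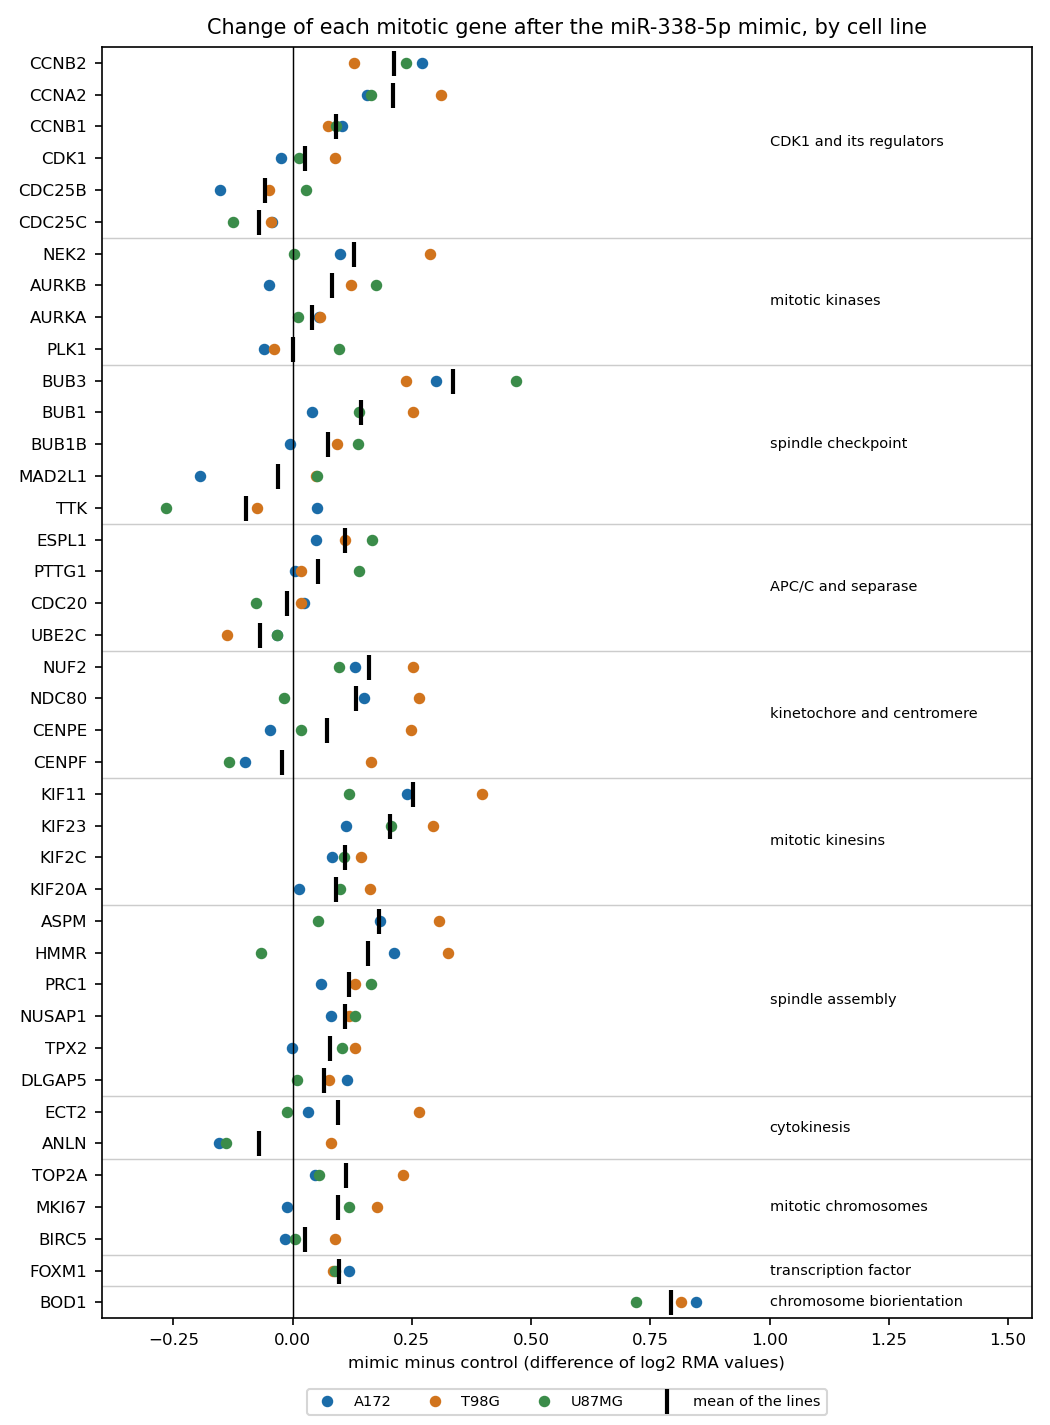
Each row is 1 of the 40 measured genes, grouped by role, and the horizontal axis is mimic minus control as a difference of log2 values, with 1 point per line and a bar at the mean. BOD1 stands at 0.79, apart from the other 39 genes between -0.10 and 0.34, and T98G has the highest point in 21 rows.

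Among cyclin-dependent kinase 1 and its regulators, 4 of 6 genes had a positive change, 0 were called in limma's fit and 2 had an unadjusted p under 0.05, both higher. CCNB2, a B-type cyclin, stood at 8.94, 8.73 and 9.05 with the mimic in A172, T98G and U87MG, against 8.67, 8.60 and 8.81 with the control. CCNA2, cyclin A, stood at 9.60, 9.51 and 9.92 with the mimic in the same lines, against 9.44, 9.20 and 9.75 with the control. Both cyclins were higher in each line, but the groups overlapped across lines. The changes were 0.21 ± 0.07 for CCNB2 (limma, adjusted p = 0.329) and 0.21 ± 0.09 for CCNA2 (adjusted p = 0.341). CCNB1, the main mitotic cyclin, was at 0.09, CDK1 itself at 0.03, CDC25B at -0.06 and CDC25C at -0.07.

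Of the 4 mitotic kinases 3 had a positive change, and 0 were called or had an unadjusted p under 0.05. NEK2, which acts in centrosome separation, was at 0.13, and AURKB, the kinase of the chromosomal passenger complex, at 0.08. AURKA, the spindle pole kinase, was at 0.04. PLK1, the polo kinase of mitotic entry and of spindle assembly, averaged -3.07e-05, with -0.06 in A172, -0.04 in T98G and 0.10 in U87MG.

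The spindle checkpoint held the member nearest to BOD1. BUB3, which brings BUB1 and BUB1B to kinetochores, stood at 8.75 in A172, 9.60 in T98G and 9.64 in U87MG with the mimic, against 8.45, 9.36 and 9.17 with the control. BUB3 was higher in every line, by 0.30, 0.24 and 0.47, and its levels differed more between A172 and the other lines than between mimic and control. Its mean change was 0.34 ± 0.12, or 1.26-fold, and was not called (limma, adjusted p = 0.152). With a variance prior that follows expression it was called, at an adjusted p of 0.0117.

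BUB1, a checkpoint kinase, stood at 10.21, 9.63 and 9.92 with the mimic in A172, T98G and U87MG, against 10.17, 9.38 and 9.78 with the control. It was higher in each line, most in T98G, and its change of 0.14 ± 0.11 was not called (limma, adjusted p = 0.541). BUB1B, whose product blocks the anaphase-promoting complex, was at 0.07. MAD2L1, a checkpoint protein of unattached kinetochores, was at -0.03, with -0.19 in A172 and 0.05 in both other lines. TTK, the kinase that starts checkpoint signalling, had the lowest change of all members at -0.10, which came with -0.27 in U87MG against 0.05 in A172 and -0.08 in T98G.

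In the anaphase-promoting complex and separase axis, 2 of 4 genes had a positive change. ESPL1, the protease separase that cuts cohesin, was at 0.11, and its inhibitor securin, PTTG1, at 0.05. CDC20, the activator of the complex in mitosis, was at -0.01 and UBE2C at -0.07.

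At the kinetochore NUF2 and NDC80 form part of the complex that grips microtubules. NUF2 stood at 9.12 in A172, 8.65 in T98G and 8.72 in U87MG with the mimic, against 8.99, 8.39 and 8.62 with the control. It was higher in each line, and its change of 0.16 ± 0.08 was not called (limma, adjusted p = 0.469). NDC80 was at 0.13, with 0.15 in A172, 0.27 in T98G and -0.02 in U87MG. CENPE, a motor that carries chromosomes to the spindle equator, was at 0.07, with -0.05 in A172, 0.25 in T98G and 0.02 in U87MG. CENPF, a large protein of the outer kinetochore, was at -0.02.

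All 4 mitotic kinesins were higher in every line. KIF11, the motor that pushes the spindle poles apart, stood at 9.22, 8.81 and 9.04 with the mimic in A172, T98G and U87MG, against 8.97, 8.41 and 8.92 with the control. KIF23, a motor of the central spindle, stood at 10.60, 10.77 and 10.77 with the mimic in the same lines, against 10.49, 10.47 and 10.56 with the control. For KIF23 the 3 mimic values lay above the 3 control values, while those of KIF11 overlapped because the T98G levels were lower. The change of KIF11 was 0.25 ± 0.14, or 1.19-fold (limma, adjusted p = 0.302), and that of KIF23 was 0.20 ± 0.09 (adjusted p = 0.363), so neither was called. KIF2C, which takes apart microtubules, was at 0.11, and KIF20A, a motor of cytokinesis, at 0.09.

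The 6 spindle assembly genes all had a positive mean change, and 4 were higher in every line. ASPM, which acts at the minus ends of spindle microtubules, stood at 9.36, 9.16 and 9.45 with the mimic in A172, T98G and U87MG, against 9.18, 8.86 and 9.40 with the control. HMMR, a spindle protein also known as a hyaluronan receptor, stood at 8.64, 9.45 and 9.08 with the mimic, against 8.43, 9.12 and 9.14 with the control. ASPM was higher in each line, while HMMR was higher in A172 and T98G and lower in U87MG. The changes were 0.18 ± 0.13 for ASPM (limma, adjusted p = 0.450) and 0.16 ± 0.20 for HMMR (adjusted p = 0.588). PRC1, which bundles the central spindle, was at 0.12, and NUSAP1, a spindle microtubule protein, at 0.11. TPX2, the activator of AURKA, was at 0.08 and DLGAP5, a stabiliser of spindle fibres, at 0.07.

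Of the remaining members, FOXM1, the transcription factor of many genes of this group, was at 0.10 and alike in the lines, with 0.12 in A172, 0.09 in T98G and 0.09 in U87MG. TOP2A, which untangles sister chromatids, was at 0.11. MKI67, the coat of mitotic chromosomes and the marker of dividing cells read as Ki-67, was at 0.09. BIRC5, or survivin, of the chromosomal passenger complex, was at 0.03. Its second, dimmer probe set was not used and had -0.10 in A172, 0.05 in T98G and 0.15 in U87MG. Among cytokinesis genes ECT2, which activates RHOA at the cell equator, was at 0.10 and ANLN, the scaffold anillin, at -0.07.

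**Figure D2:**
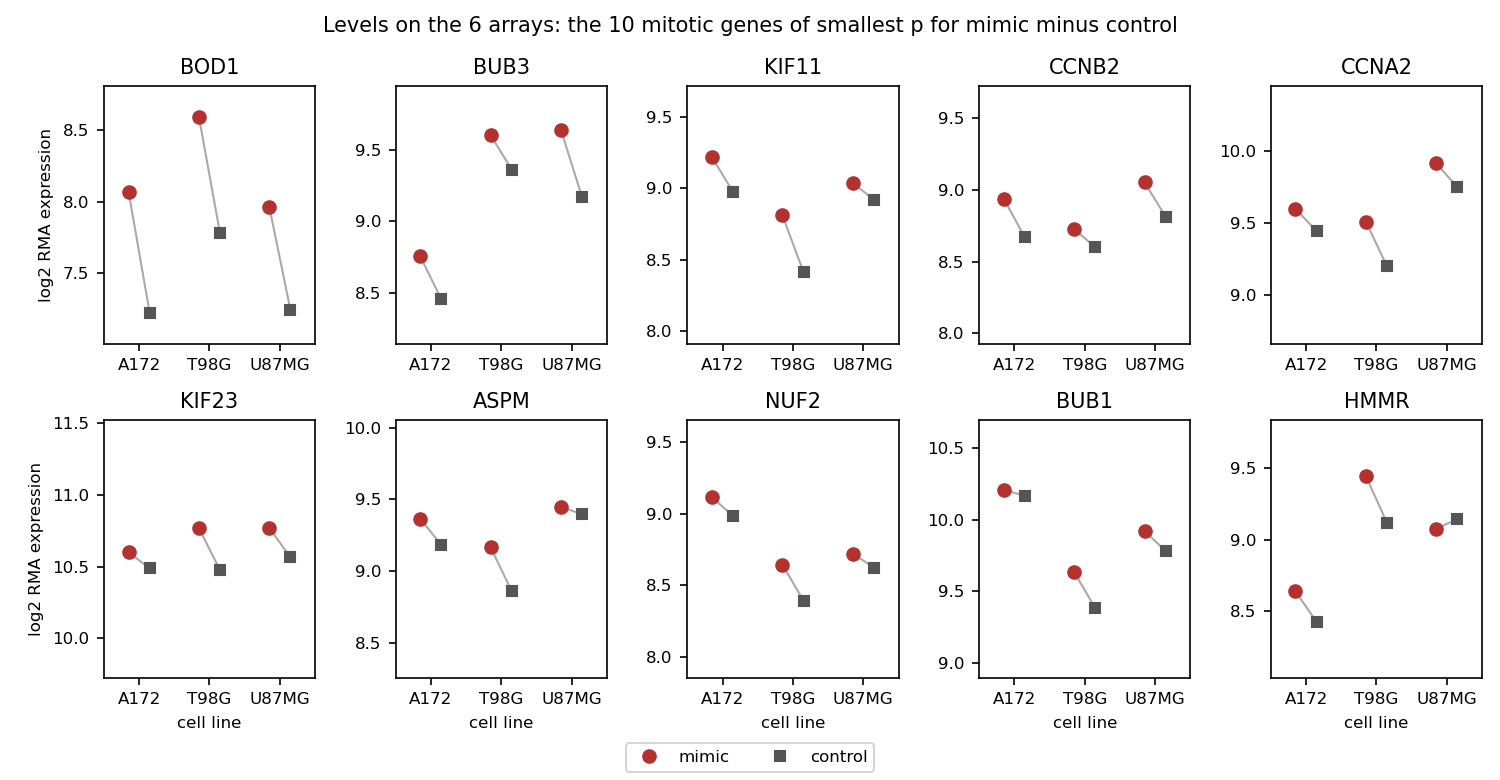
Each panel is 1 of the 10 genes with the smallest p for mimic minus control, with the lines on the horizontal axis, log2 RMA expression on the vertical axis over an equal span in every panel, and a grey line joining mimic (red circle) to control (dark square). BOD1 stands 0.72 to 0.85 higher with the mimic in each line, whereas in HMMR the U87MG pair slopes the other way.

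Within a line there is 1 array per group, so the size of the response was described by line and its difference between lines was not tested. The median change of the members was 0.049 in A172, 0.129 in T98G and 0.090 in U87MG, against 0.0046, -0.0071 and 0.0203 over all genes in the same lines. Members above 0 numbered 26 in A172, 35 in T98G and 31 in U87MG, where 51.1%, 48.5% and 54.7% of all genes were above 0. In T98G 14 members were higher by at least 0.2, or 35.0%, against 14.5% of all genes. The same step was reached by 5 members in A172 and 4 in U87MG, where 15.0% and 15.5% of all genes reached it. TTK in U87MG was the one member lower by 0.2 or more in any line, a step that 13.4%, 15.4% and 13.1% of all genes reached downward in A172, T98G and U87MG.

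The 14 genes of T98G were BOD1, KIF11, HMMR, CCNA2, ASPM, KIF23, NEK2, NDC80, ECT2, NUF2, BUB1, CENPE, BUB3 and TOP2A. T98G had the largest change of the 3 lines in 21 members, where it did so in 29.5% of all genes. The SD over the lines had a median of 0.084 over the members, against 0.134 over all genes.

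The lines differed in the levels of many members under both transfections. Limma's F test called 25 of the 40 members, against 67.5% of all genes, so the members differed between lines about as often as other genes. In 17 members the largest difference between 2 lines was at least 0.5, which 53.0% of all genes reached, and the widest was 0.94. The median of that largest difference was 0.48 over the members, against 0.54 over all genes. U87MG had the highest line mean in 20 members, while T98G had the lowest in 18 and A172 in 14. The shares of all genes with these orders were not counted, so these counts are not read as particular to the members. The tests between lines take the mimic and control arrays of a line as its 2 replicates.

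T98G was called lower than U87MG in 15 members and higher in 6, where 23.5% of all genes were lower and 23.6% higher. A172 was called lower than U87MG in 13 members and higher in 5, where 26.9% of all genes were lower and 27.3% higher. Between A172 and T98G the counts were 8 higher and 9 lower in A172, where 25.1% and 25.4% of all genes were called. Leaving out single arrays lowered several of these counts. For T98G minus U87MG the 15 lower members became 6 without the U87MG control and 7 without the T98G control, and the 6 higher became 3 without the U87MG mimic array. For A172 minus U87MG the 5 higher became 2 without either A172 array, 1 without the U87MG mimic array and 3 without the U87MG control. The 8 members higher in A172 than in T98G became 4 without the control array of either line. The median differences of the members were -0.15 for T98G minus U87MG, -0.12 for A172 minus U87MG and 0.05 for A172 minus T98G, against 0.03, 0.05 and 0.03 over all genes.

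**Figure D3:**
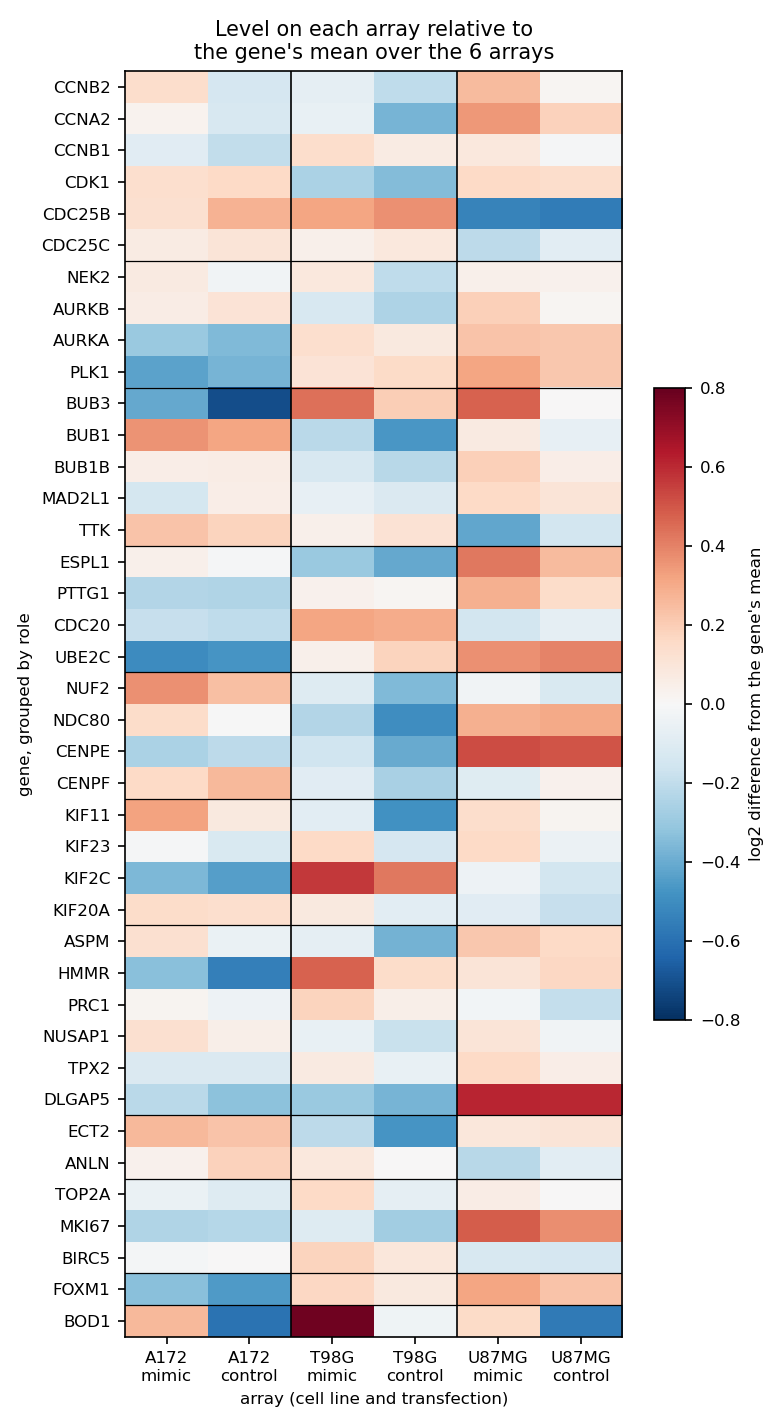
Rows are the 40 measured genes grouped by role, columns are the 6 arrays with the mimic left of the control in each line, and colour is the log2 difference from the gene's own mean over the arrays. Rows such as CDC25B and DLGAP5 change colour by line, whereas in the BOD1 row each mimic array is the redder of its pair.

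In 13 members both U87MG arrays were the highest of the 6, or 32.5%, against 20.8% of all genes. DLGAP5 read 9.12, 9.04 and 9.94 with the mimic in A172, T98G and U87MG, and 9.00, 8.96 and 9.93 with the control. Both U87MG arrays lay far above the other 4 arrays, which overlapped between A172 and T98G. A172 was 1.84-fold lower than U87MG (log2 difference -0.88, limma adjusted p = 0.000259), T98G was 1.92-fold lower than U87MG (-0.94, adjusted p = 0.000219), and A172 minus T98G was 0.06 (adjusted p = 0.617).

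CENPE read 8.03, 8.13 and 8.81 with the mimic in A172, T98G and U87MG, and 8.07, 7.88 and 8.79 with the control. MKI67 read 9.90, 10.04 and 10.63 with the mimic in the same order of lines, and 9.91, 9.86 and 10.51 with the control. Both genes had the pattern of DLGAP5, with A172 and T98G overlapping below U87MG. In limma's fit A172 was 1.68-fold below U87MG for CENPE (-0.75, adjusted p = 0.00117) and 1.58-fold below it for MKI67 (-0.66, adjusted p = 0.0012). T98G was 1.73-fold below U87MG for CENPE (-0.79, adjusted p = 0.00103) and 1.54-fold below it for MKI67 (-0.62, adjusted p = 0.00191). The order of A172 and T98G was not resolved in either gene, where their differences were 0.05 and -0.04.

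ESPL1, which encodes separase, differed in all 3 contrasts, with both U87MG arrays highest and both T98G arrays lowest. It read 7.04, 6.70 and 7.42 with the mimic in A172, T98G and U87MG, and 6.99, 6.59 and 7.25 with the control. T98G was 1.62-fold below U87MG (-0.69, limma adjusted p = 0.000894), A172 was 0.37 above T98G (adjusted p = 0.0131) and A172 minus U87MG was -0.33 (adjusted p = 0.0203). The 2 contrasts with A172 were lost in some of the fits that left out a single array, with adjusted p up to 0.106 against T98G and 0.14 against U87MG.

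A172 was the low line in some other members. Both of its arrays were the lowest of the 6 in 11 members, or 27.5%, not far from the 22.2% of all genes with that order. The 11 included CCNB1, PLK1, AURKA, CDC20, UBE2C, PTTG1 and FOXM1. PLK1 read 10.36, 10.90 and 11.11 with the mimic in A172, T98G and U87MG, and 10.42, 10.94 and 11.01 with the control. FOXM1 read 9.36, 9.86 and 10.01 with the mimic in the same order, and 9.24, 9.77 and 9.92 with the control. In both genes A172 lay below the other lines and T98G stood next to U87MG. A172 was below T98G by 1.45-fold for PLK1 (-0.53, limma adjusted p = 0.00318) and by 1.43-fold for FOXM1 (-0.52, adjusted p = 0.00269). T98G minus U87MG was -0.14 and -0.15, with adjusted p of 0.275 and 0.211.

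BUB3, already given by array, was also lowest in A172. For BUB3 A172 was 1.84-fold below T98G (-0.88, limma adjusted p = 0.000445) and 1.74-fold below U87MG (-0.80, adjusted p = 0.000638). T98G minus U87MG was 0.08 for BUB3 (limma adjusted p = 0.548). UBE2C read 7.66, 8.20 and 8.53 with the mimic in A172, T98G and U87MG, and 7.69, 8.34 and 8.56 with the control. A172 was 1.51-fold below T98G for UBE2C (-0.59, adjusted p = 0.00166) and 1.83-fold below U87MG (-0.87, adjusted p = 0.000283). T98G minus U87MG was -0.28 for UBE2C, with an adjusted p of 0.0427 that reached 0.217 when single arrays were left out.

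KIF2C and CDC25B had both T98G arrays highest of the 6. KIF2C read 8.52, 9.44 and 8.83 with the mimic in A172, T98G and U87MG, and 8.43, 9.30 and 8.73 with the control. The T98G arrays stood above all others, and A172 was 1.86-fold below T98G (-0.89, limma adjusted p = 0.000238) while T98G was above U87MG by 0.59 (adjusted p = 0.00171). A172 minus U87MG was -0.31 for KIF2C (adjusted p = 0.0234), a call that was lost without any single array of A172 or U87MG, where adjusted p went up to 0.135.

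CDC25B, a phosphatase that starts cyclin-dependent kinase 1 activity, was lowest in U87MG. It read 9.10, 9.28 and 8.43 with the mimic in A172, T98G and U87MG, and 9.25, 9.33 and 8.41 with the control. A172 was 1.68-fold above U87MG (0.75, limma adjusted p = 0.000659) and T98G 1.85-fold above it (0.89, adjusted p = 0.00035), while A172 minus T98G was -0.14 (adjusted p = 0.265). TTK also had both U87MG arrays at the bottom. A172 was 0.48 above U87MG for TTK (adjusted p = 0.00843), and T98G was 0.36 above it (adjusted p = 0.0315).

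T98G was the low line in some members of several roles. Both T98G arrays were the lowest of the 6 in 10 members, an order that 18.8% of all genes had. Those members included CDK1, AURKB, BUB1, NDC80, KIF11, ASPM and ECT2. Both T98G arrays were the highest in 5 members, among them the kinesin KIF2C and the spindle assembly gene PRC1. The low level in T98G is therefore not read as particular to kinetochore or spindle genes. For KIF11, whose array values are given above, A172 was 0.48 above T98G (limma adjusted p = 0.00749) and T98G was 0.37 below U87MG (adjusted p = 0.0247). For BUB1, where A172 was highest, the difference of A172 from T98G was 0.68 (adjusted p = 0.00124). BOD1 was highest in T98G, which was 0.58 above U87MG (adjusted p = 0.00208). For BOD1 A172 was 0.54 below T98G (adjusted p = 0.00266), and A172 minus U87MG was 0.04 (adjusted p = 0.709).

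The F test did not call 15 members, with NEK2 (adjusted p = 0.665), KIF23 (0.493) and TOP2A (0.468) the furthest from the threshold. KIF23 had line means of 10.54, 10.62 and 10.67 (A172, T98G, U87MG). The means of TOP2A lay at 9.90, 10.02 and 10.01 in the same order, and the means of NEK2 at 7.93, 7.85 and 7.95. A test that misses the threshold with 2 arrays per line does not show that the lines are alike.

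**Figure D4:**
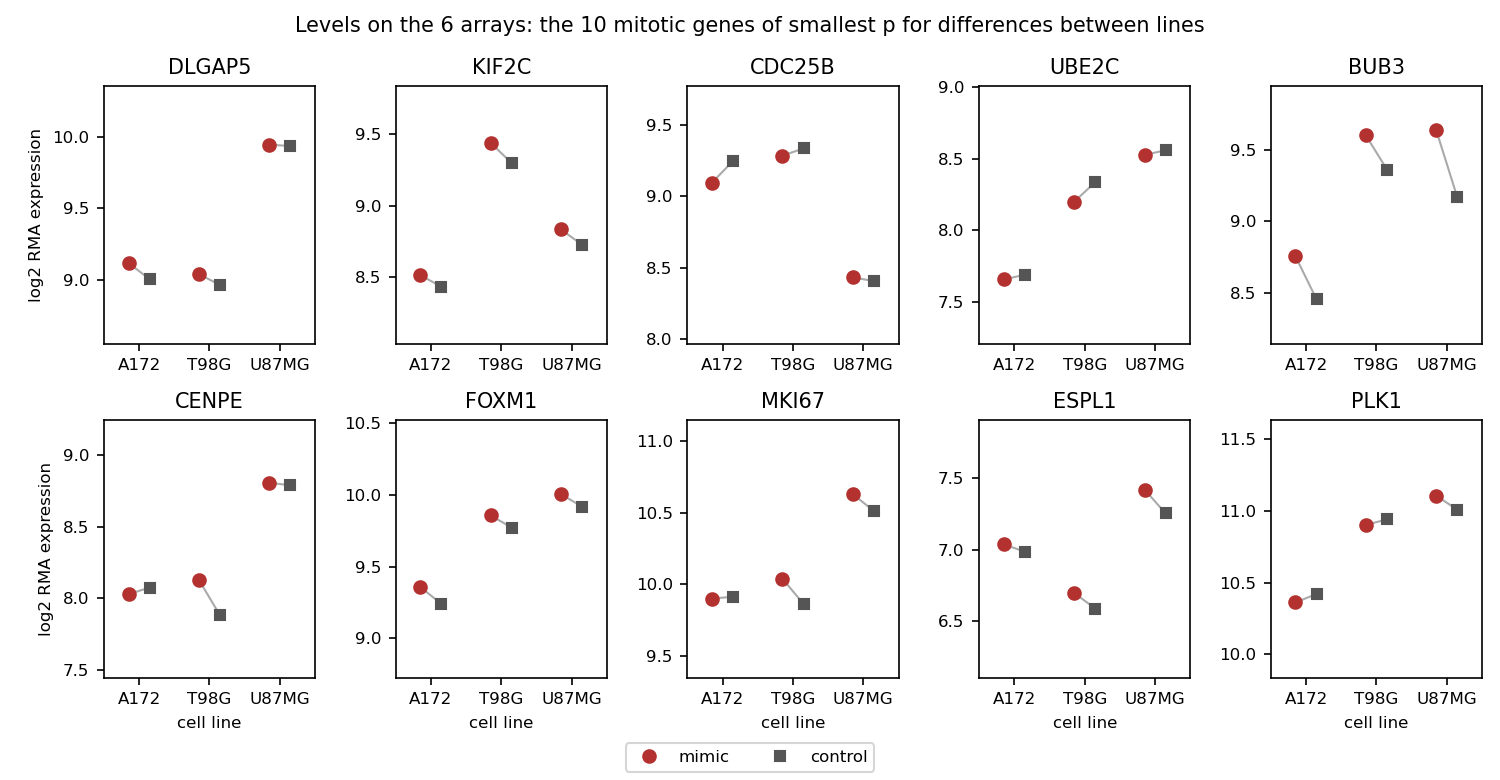
Each panel is 1 of the 10 genes with the smallest F test p between lines, with the lines on the horizontal axis, log2 RMA expression on the vertical axis over an equal span, and a grey line joining mimic (red circle) to control (dark square). U87MG stands above the other lines for DLGAP5, CENPE and MKI67, A172 below them for BUB3, FOXM1 and PLK1, and T98G above them for KIF2C.

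Other genes of the same machinery were read from lists beside the members. In 6 lists of other kinetochore, checkpoint, anaphase-promoting complex, condensin and cohesin, spindle and mitotic entry genes, 124 of 127 were measured and 86 had a positive change. Over all genes 52.4% had a positive change, a share to set beside the counts of positive changes in each list below. The median of the 6 lists was 0.068, against 0.0068 over all genes. Of the 124 measured genes 51 were higher in every line and 16 lower in every line, where 18.5% and 15.8% of all genes were. Rises in every line were therefore not particular to the members. In limma's fit 0 genes of the 6 lists were called higher and 1 lower, where 0.319% and 0.789% of all genes were. At an unadjusted p under 0.05, 12 were higher and 3 lower, where 6.01% and 5.83% of all genes were. The called gene was NSL1, a subunit of the MIS12 complex on which the outer kinetochore is built.

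With the mimic NSL1 stood at 8.49 in A172, 8.47 in T98G and 7.60 in U87MG, against 9.16, 9.23 and 8.54 with the control. It was lower in each line, and all mimic values lay below all control values. NSL1 fell by 0.79 ± 0.13 in limma's test (adjusted p = 0.0151). Without the U87MG arrays, where 0 genes in all were called, the change of NSL1 was -0.72 and limma's adjusted p 0.137. DSN1, another subunit of the MIS12 complex, was at -0.38 ± 0.05 and was not called (limma, adjusted p = 0.0823). MIS12 itself was at -0.03. CENPH, of the inner kinetochore, was at 0.49 ± 0.24 (adjusted p = 0.115). Of the 29 measured genes of this list 19 had a positive change.

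Condensin and cohesin genes had 16 of 19 positive changes and a median of 0.11, with NCAPD3, a condensin subunit, at -0.24 and NIPBL, the cohesin loader, at 0.21. Of 28 other mitotic kinesins and spindle genes 22 were positive, and CIT, citron kinase of the midbody, came nearest to a call at 0.45 ± 0.09 (limma, adjusted p = 0.0572), ahead of KIF14, a kinesin of cytokinesis, at 0.22. Among 19 genes of mitotic entry 12 were positive, with MELK, a mitotic kinase, at 0.23 and CDC25A, a phosphatase that activates cyclin-dependent kinases, at 0.22. The 12 other checkpoint and passenger genes had 7 positive changes, with the cohesin protectors SGO1 at -0.15 and SGO2 at 0.14. The 17 genes of the anaphase-promoting complex had 10, with the subunits CDC26 at 0.26 and ANAPC4 at -0.17. None of the genes named in these sentences was called.

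A list of transcription genes held 14 genes of MuvB, DREAM and MYB complexes and of the E2F family. They had 12 positive changes and a median of 0.084. In limma's fit 0 were called and 1 was higher at an unadjusted p under 0.05, where 6.01% of all genes were. E2F8, a repressor of the E2F family, was at 0.26 and RBL1, the pocket protein p107, at 0.16. Cyclin-dependent kinase inhibitors had 3 positive and 3 negative changes of 6 measured, with CDKN1C at -0.21 and CDKN1A at 0.22. CDKN1A, which encodes p21, varied widely, with 0.24 in A172, -0.27 in T98G and 0.69 in U87MG.

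Of 11 genes of the BOD1 paralogs and the B56 form of protein phosphatase 2A, 1 was called in each direction. Over all genes 0.319% were called higher and 0.789% lower. PPP2R5A, a B56 subunit of the phosphatase, stood at 5.17, 5.77 and 5.67 with the mimic in A172, T98G and U87MG, against 6.81, 7.41 and 7.11 with the control, and it fell by 1.57 ± 0.11 (limma, adjusted p = 0.00247). PPP2R1B, a scaffold subunit, stood at 8.22, 8.60 and 7.87 with the mimic in the same lines, against 7.56, 7.66 and 7.21 with the control, and it rose by 0.76 ± 0.16 (adjusted p = 0.0202). In both genes the mimic and control values did not overlap. Both calls were lost without the U87MG arrays, as were those of all other genes. Limma's adjusted p was then 0.0733 for PPP2R5A and 0.143 for PPP2R1B. In 30 genes of the preceding cell cycle step, G1/S and DNA replication, 24 changes were positive with a median of 0.078. RFC3, a subunit of the clamp loader, fell by 0.58 ± 0.12 (limma, adjusted p = 0.0316), while GINS3, of the replicative helicase, was at 0.46. The RFC3 call was lost with no filter (adjusted p = 0.0672) and without any single line (0.0683 without A172, 0.0763 without T98G and 0.208 without U87MG).

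**Figure D5:**
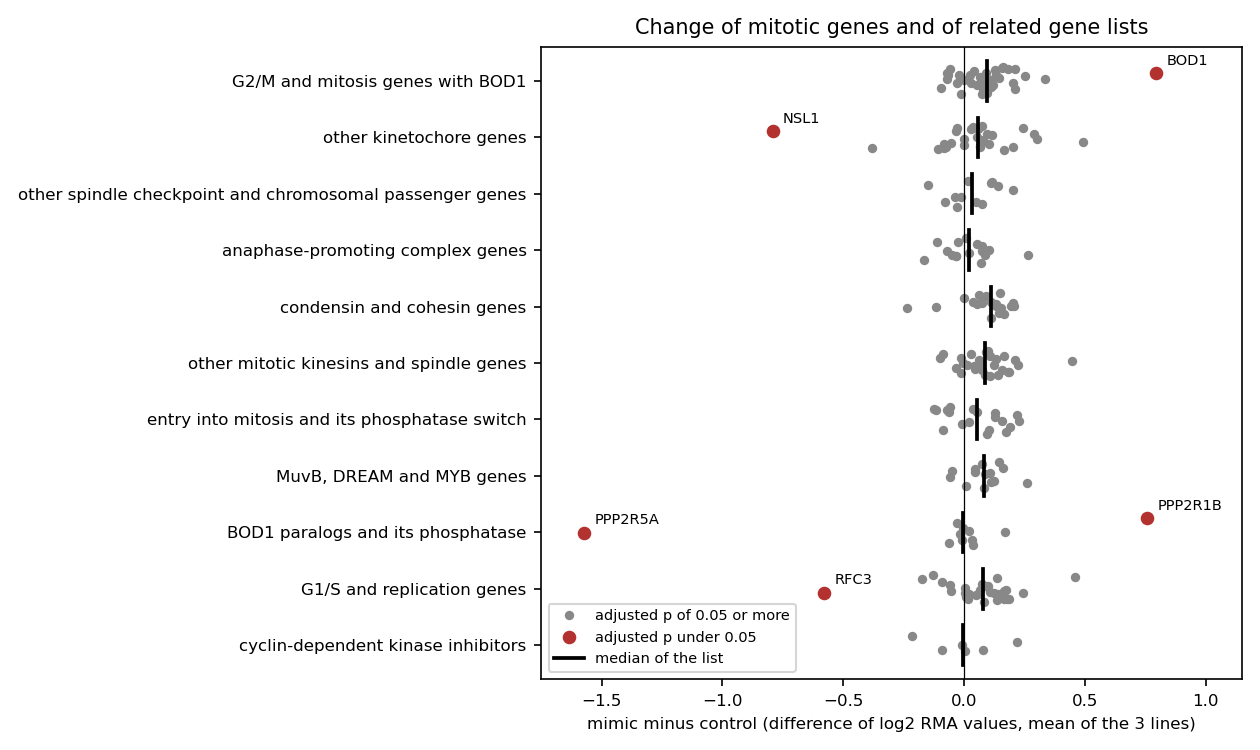
Each row is a gene list, each point a measured gene at its mean mimic minus control as a difference of log2 values, red where limma's adjusted p is under 0.05, and the bar is the median of the list. BOD1 is the only red point of the top row at 0.79, and NSL1 at -0.79 is the only one of the 6 rows under it.

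Markers of the labelled cell type were present in part. Vimentin (VIM) stood between 11.9 and 12.6 and CD44 between 11.5 and 11.9 on all arrays, while the astrocyte genes S100B and AQP4 were under the filter level of 4.28 on every array and GFAP lay between 5.07 and 5.39. Of the leukocyte markers PTPRC was above the filter level on 1 array and CD3E, AIF1 and LYZ on none, while ITGAM stood between 4.35 and 4.92 and CD68, a lysosomal protein, between 8.29 and 10.4. In A172 the neuronal NEFL stood at 11.0 with the mimic and 10.8 with the control, and the epithelial KRT8 at 10.5 with the mimic and 10.4 with the control. The epithelial KRT18 stood between 8.48 and 10.9 over all arrays, KRT19 was above the filter level on all 6, and the neuronal SNAP25 stood at 7.92 with the mimic and 8.11 with the control in U87MG. The endothelial TEK stood at 6.28 with the mimic and 6.26 with the control in A172. KDR stood at 5.89 with the mimic and 5.71 with the control in U87MG, while PECAM1 and VWF were under the filter level on every array. On a linear scale the 12 glioblastoma and astrocyte markers summed to between 7738 and 11368 with the mimic and between 7555 and 11703 with the control. The 8 neuronal markers summed to 212 to 2369 with the mimic and 205 to 2000 with the control, and the 7 leukocyte markers to 379 to 1316 with the mimic and 387 to 1404 with the control. The 5 endothelial markers summed to 71.8 to 138 with the mimic and 77.1 to 133 with the control, and the 5 epithelial markers to 472 to 3251 with the mimic and 512 to 3314 with the control. The lists differ in length and probe sets in brightness, so these sums are not compared between lists and do not name the cell type. VIM and CD44 were the brightest of the 12 glioblastoma and astrocyte markers on every array. Of these lists 10 glioblastoma and astrocyte, 7 neuronal, 2 leukocyte, 2 endothelial and 4 epithelial markers passed the filter and were tested, and none of the tested markers was called for the mimic. Their part in the results was not tested.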

How the data were processed

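The authors deposited log2 expression values of 33297 probe sets on 6 arrays. Per the submitters' processing notes they came from RMA with oligo in R 3.0.1, and they were used unchanged. Array medians lay between 5.06 and 5.14, and the number of arrays limits the precision. Genes were named through the platform annotation (1 symbol for 19460 probe sets, several for 1754, none listed for 12083), with identifiers of 19429 updated to RefSeq of GRCh38.p14, and the brightest probe set stood for each of 18417 genes. The 25% of genes with the lowest means were left out (level 4.28).

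Limma 3.58.1 in R 4.3.3 fitted line and transfection together with 2 residual and, after moderation, 6.56 total degrees of freedom, and was tested on simulated data. The lines pair the arrays by the labels, and deviations from group means correlated within a line at r from 0.951 to 0.958. Array values are given for BOD1, BUB3, KIF11, the 10 members of smallest p for the mimic and for the lines, and called genes of other lists, of which otherwise the 2 genes of smallest p are named. MIS12, and members named beyond the 10 for the lines, were added after their values were seen, as were the step of 0.2 within a line and the counts of genes higher in every line. The members, lists and tests were chosen with earlier results of these data known. Alternatives covered the filter, the variance prior, scaling, probe sets, the block and single lines or arrays left out.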

Additional observations from a re-analysis of the deposited data

Results flagged for a closer look

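CENPF, a protein of the outer kinetochore, had opposite signs in the lines: mimic minus control was 0.16 in T98G, against -0.13 in U87MG and -0.10 in A172. Each line has 1 array per group, so the difference between lines was not tested. The probe set shared by CENPA and a second gene was left out of the comparisons, and its mimic minus control was 0.25 in A172, 0.16 in T98G and 0.20 in U87MG. Which gene its signal comes from cannot be told apart on this array.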

How the results depend on the processing

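In the 10 alternatives tried for the mimic the change of BOD1 was 0.77 to 0.83, with limma's adjusted p from 9.94e-05 to 1.00. These fits hardly put its sign to a test. The filter, the variance prior, the block and the mean of probe sets left its change at 0.79. The fits without single lines averaged changes that were positive in every line. Centring the arrays gave 0.77 and repeated quantile normalization 0.79. The number of members called higher was 2 with a variance prior that follows expression, where BUB3 joined BOD1, 0 with no replicate block and 0 to 1 when single lines were left out. Without the block, NSL1, PPP2R5A, PPP2R1B and RFC3 lost their calls as well, as they did without U87MG. Those fits called 0 genes in all, with 127 and 1339 at an unadjusted p under 0.05, against 1635 in the full fit. Over all genes 153 were called, against 60 with no filter, 360 with the lower 50% left out, 471 with the other variance prior and 64 without A172, where 15.6% of calls were higher, against 28.8%. Among A172 minus U87MG differences 8 members were higher with the other variance prior and 3 with arrays centred on their medians, against 5. Leaving out single arrays gave 1 to 6 there, 4 to 8 higher for A172 minus T98G, and 3 to 5 higher and 6 to 11 lower for T98G minus U87MG. Members with a positive change numbered 29 to 34 without single lines. Their median was 0.062 without T98G and 0.125 without A172, and 16 instead of 21 were higher in every line after centring. The cause of these shifts was not tested. With 3 arrays per group, changes as small as those of most members are not resolved singly.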
